A study of Homo sapiens with 12 samples.

Results

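The mitochondrial ribosomal protein genes were taken as every protein-coding gene in the deposited count tables whose symbol begins with MRPL, for the large subunit, or MRPS, for the small subunit. This gave 78 of 60675 genes, 49 MRPL and 29 MRPS, and all 78 are called members below. Counts of 12 RNA-seq libraries were compared, 3 in each of 4 groups. In the knockdown groups a short hairpin RNA against the long non-coding RNA SOX9-AS1 (sh-SOX9-AS1) had been transfected for 48 hours into HCC1187 or MDA-MB-468 cells, which are triple-negative breast cancer lines. The sh-CONTROL group of each line received sh-LacZ, a hairpin against a bacterial gene. The libraries are named S10 to S12 (HCC1187 sh-SOX9-AS1), S7 to S9 (HCC1187 sh-CONTROL), S4 to S6 (MDA-MB-468 sh-SOX9-AS1) and S1 to S3 (MDA-MB-468 sh-CONTROL). Each line was grown in its own medium, HCC1187 in RPMI-1640 and MDA-MB-468 in DMEM, so the line and its medium cannot be told apart. Knockdown column names contain the word BLANCO, which the labels leave unexplained. Whether the 3 libraries within a group stem from separate cultures is not stated, so the p-values below measure the spread between libraries, which may be technical.

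The mitochondrial ribosome translates the few messenger RNAs of the mitochondrial genome, which encode core subunits of the respiratory chain and of ATP synthase. Its ribosomal RNAs are made in the organelle, while all of its proteins are encoded in the nucleus, translated in the cytosol and imported. Some of these proteins descend from bacterial ribosomal proteins and others joined the ribosome in the course of eukaryotic evolution. Symbols do not always give the subunit: MRPS18A and MRPS30 (mL65) sit in the large subunit, and MRPS36 is now known as a subunit of the 2-oxoglutarate dehydrogenase complex.

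Totals in the lane used here ran from 6026376 to 10160040 counts per library, and the members held 0.388% to 0.457% of them. One MDA-MB-468 knockdown library, S4, stood apart from its group: across 13638 genes its log2 CPM (counts scaled to a common library total) had a Pearson r of 0.963 with S5 and 0.958 with S6, and of 0.985 to 0.993 with the controls. MDA-MB-468 calls and the values of genes described singly are therefore given with and without S4. SOX9-AS1 itself was lower in the HCC1187 knockdown by 1.08 on the log2 scale (± 0.36 SE, edgeR adjusted p = 0.0349), with 1.33, 0.771 and 0.886 CPM in S10 to S12 and 2.54, 1.54 and 1.85 CPM in S7 to S9. In MDA-MB-468 its difference did not pass, at −0.30 ± 0.20 (edgeR adjusted p = 0.417), or −0.32 ± 0.23 without S4 (edgeR adjusted p = 0.274). Some markers listed for basal-like epithelium were absent or low in the libraries labelled HCC1187. KRT6B was at 0 in all 6, KRT5 and KRT14 reached at most 0.212 and 0.118 CPM, and EPCAM was at 4.03 to 8.18 CPM. KRT17 and CDH1 stood at 4.48 to 12.5 and 9.37 to 13.0 CPM. Others of that list were well above these: KRT8 at 166 to 201, KRT18 at 73.0 to 103 and EGFR at 57.5 to 65.3 CPM. In the MDA-MB-468 libraries KRT5 was at 659 to 1460 CPM and EPCAM at 293 to 396 CPM. KRT8, KRT18 and EGFR were at 1493 to 1802, 688 to 1002 and 4895 to 5870 CPM there. NEFM and LIN28B, listed here as markers of the HEK293 line, stood at 113 to 249 CPM and 59.9 to 166 CPM in the libraries labelled HCC1187 and at no more than 0.379 and 0.757 CPM in MDA-MB-468. The identity of the cells labelled HCC1187 was not tested, and each HCC1187 result below is one of libraries with that label.

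In HCC1187, of the 77 members with enough counts to be tested, 14 rose, 4 fell and 59 did not pass (edgeR's quasi-likelihood test, Benjamini-Hochberg adjusted p under 0.05 over all 14970 genes tested). The members that rose were 18.2% of those tested, where 9.78% of all genes tested rose; those that fell were 5.19%, where 13.1% of all genes fell. The median log2 fold change was 0.10 over the members and 0.01 over all genes tested, and 54 of 77 members (70.1%) were above 0, where 52.0% of all genes were. Control and knockdown libraries did not overlap in CPM, with the knockdown higher, for 33 members (42.9%, and 24.0% of all genes), and with the knockdown lower for 4 members (5.19%, and 15.5% of all genes). The changes were small: none of the 18 members reached 1.5-fold, and the largest, of MRPS33, was 1.45-fold. The split depended on scaling: on library totals alone 23 members rose and 3 fell (88.5% of calls upward, and 77.8% with TMM scaling), while over all genes 57.7% of calls were upward on totals and 42.8% with TMM. The markers NEFM and LIN28B also differed between these groups, with 113 to 139 and 59.9 to 71.3 CPM in the knockdown and 230 to 249 and 142 to 166 CPM in the controls; their part in the members' values was not tested. In cultured populations, fewer cells of a kind and less RNA per cell cannot be told apart.

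**Figure D1:**
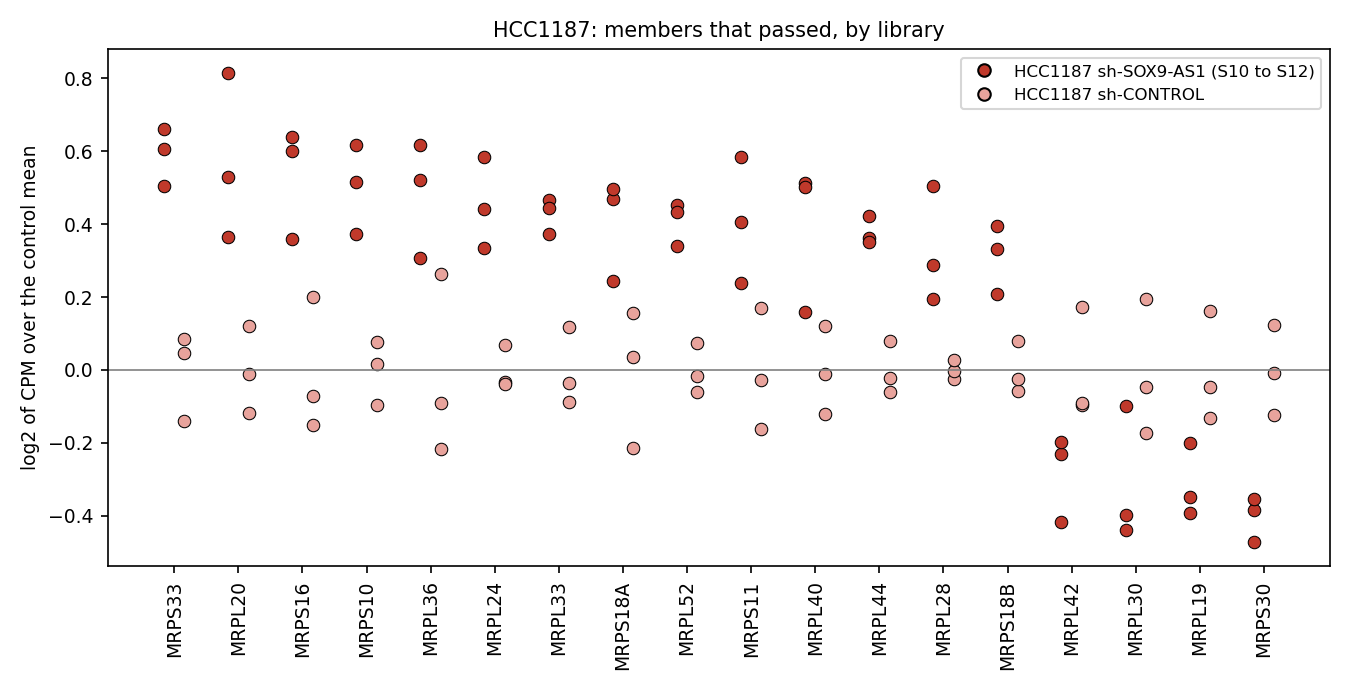
The 18 members that passed in HCC1187, one column of points per gene in the order of their fold changes; the vertical axis is the log2 ratio of each library's CPM to the mean of the controls S7 to S9, with knockdown libraries (dark) to the left of controls (light). The knockdown points lie above all control points for the 14 genes on the left, below them for MRPS30, MRPL19 and MRPL42, and overlap them for MRPL30.

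MRPS33, a small subunit protein without a bacterial counterpart, had the largest rise. Its level was 75.0, 72.2 and 67.3 CPM in S10 to S12, against 50.3, 49.0 and 43.0 CPM in S7 to S9. The groups were well apart, and the log2 fold change was 0.53 ± 0.10 (SE, edgeR adjusted p = 0.000335). MRPL20, a large subunit protein related to bacterial L20, had 84.3, 61.7 and 69.1 CPM in the knockdown and 52.0, 47.5 and 44.1 CPM in the controls (log2 fold change 0.52 ± 0.11, edgeR adjusted p = 0.00105). All 3 knockdown libraries were above all controls, S10 most of all. MRPS16, a counterpart of bacterial S16 in the small subunit, had 111, 94.1 and 114 CPM in the knockdown and 84.3, 66.1 and 69.8 CPM in the controls (0.48 ± 0.10, edgeR adjusted p = 0.00124). MRPS10, related to bacterial S10, had 45.5, 53.8 and 50.2 CPM in the knockdown and 37.0, 35.5 and 32.8 CPM in the controls (0.45 ± 0.11, edgeR adjusted p = 0.00338). MRPL24, related to bacterial L24, had 49.0, 41.2 and 44.4 CPM in the knockdown and 34.2, 31.9 and 31.8 CPM in the controls (0.40 ± 0.10, edgeR adjusted p = 0.00754). For each of these genes the lowest knockdown library was above the highest control.

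The other members that rose were the large subunit genes MRPL33, MRPL36, MRPL52, MRPL40, MRPL44 and MRPL28, the small subunit genes MRPS11 and MRPS18B, and MRPS18A. Their log2 fold changes ran from 0.25 for MRPS18B to 0.43 for MRPL36. MRPL44, whose fold resembles that of RNase III, had 42.1, 40.4 and 40.2 CPM in the knockdown and 33.3, 31.0 and 30.2 CPM in the controls. MRPL52, which has no bacterial counterpart, had 59.2, 54.8 and 58.5 CPM in the knockdown and 45.6, 42.8 and 41.5 CPM in the controls. In both genes the 3 libraries of each group lay close together and the groups did not overlap. Of the 48 members with a bacterial homolog 10 rose and 2 fell, and of the 29 without one 4 rose and 2 fell. Over all genes tested 9.78% rose and 13.1% fell. These classes were set after values were seen, and a difference between them was not tested.

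Of the 4 members that fell, MRPS30 changed most. Its transcript stood at 55.8, 56.9 and 52.5 CPM in S10 to S12, against 66.9, 79.2 and 72.3 CPM in S7 to S9. The groups did not overlap, and the log2 fold change was −0.46 ± 0.10 (edgeR adjusted p = 0.00138). MRPL19, the counterpart of bacterial L19, had 75.5, 83.8 and 73.2 CPM in the knockdown and 93.1, 108 and 87.8 CPM in the controls (−0.37 ± 0.10, edgeR adjusted p = 0.0083). MRPL42 had 85.5, 97.3 and 99.6 CPM in the knockdown and 107, 129 and 107 CPM in the controls (−0.33 ± 0.10, edgeR adjusted p = 0.0167). For MRPL30, related to bacterial L30, the groups overlapped, with 39.8, 38.7 and 49.0 CPM in the knockdown and 50.9, 60.1 and 46.5 CPM in the controls (−0.35 ± 0.11, edgeR adjusted p = 0.031). S8 was the highest control in all 4 genes.

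Single libraries bore on these calls. With each of the 6 libraries left out in turn, MRPS33, MRPL20, MRPS16, MRPS10, MRPL24, MRPL52 and MRPS30 passed in every fit. The number of members that passed, of 77, ran from 8 without S8 (7 up and 1 down) to 16 without S11. Of all genes tested, 14.4% passed without S8 and 22.3% without S11. Without S8 the edgeR adjusted p was 0.0751 for MRPL19, 0.133 for MRPL42, 0.194 for MRPL30, 0.104 for MRPL44 and 0.177 for MRPS18B. It was 0.101 for MRPL36, 0.131 for MRPS11 and 0.123 for MRPS18A without S9, 0.128 for MRPL40 without S12, and 0.0663 for MRPL33 and 0.129 for MRPL28 without S7. All 18 kept their direction in these fits.

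Both subunits were at a higher summed level in the HCC1187 knockdown. The summed level of the large subunit (MRPL) genes was 2810, 2614 and 2692 CPM in the knockdown libraries and 2526, 2395 and 2404 CPM in the controls. That of the small subunit (MRPS) genes was 1745, 1646 and 1670 CPM in the knockdown and 1566, 1480 and 1512 CPM in the controls. In both subunits all knockdown libraries were above all controls, and the log2 difference of the means was 0.15 in each (0.10 in each on TMM-scaled totals). Sums weigh the genes with most counts. By gene, the median log2 fold change (edgeR, TMM) was 0.13 over 48 MRPL genes and 0.03 over 29 MRPS genes. Over all genes tested it was 0.01, and 0.07 on library totals alone. A difference between the subunits was not tested. The ratio of the summed large to the summed small subunit level stayed between 1.59 and 1.62 across the 6 libraries. By symbol, 8 MRPL genes rose and 3 fell of 48, and 6 MRPS genes rose and 1 fell of 29, beside 9.78% and 13.1% of all genes. With MRPS18A and MRPS30 placed in the large subunit and MRPS36 left out, 9 large subunit genes rose and 4 fell of 50, 5 small subunit genes rose and 0 fell of 26, and the ratio of the sums was 1.78 to 1.86.

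**Figure D2:**
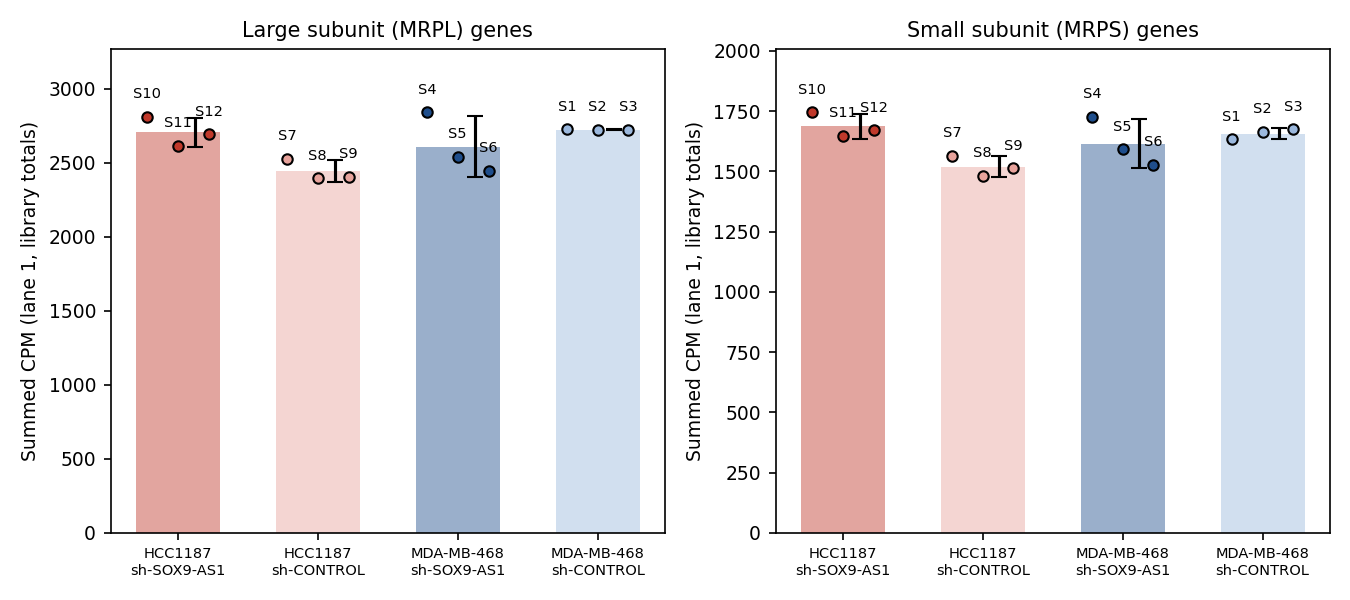
Summed CPM of the MRPL genes (left) and the MRPS genes (right) in each library, with bars for the group mean and error bars for the SD over 3 libraries; the scale starts at 0. The HCC1187 knockdown libraries lie above their controls in both panels, and in MDA-MB-468 S4 lies above the controls while S5 and S6 lie below them.

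In MDA-MB-468 no member passed with all 6 libraries, where 1 of the 13638 genes tested did (0.00733%). At an unadjusted p under 0.05 there were 8 members and 2554 genes in all with edgeR, and DESeq2 and limma-voom called 0 members. Without S4, 8 members rose and 18 fell of 77 (10.4% and 23.4%), where 20.0% of all 13947 genes tested rose and 20.7% fell. The median log2 fold change of the members was then −0.08, beside 0.00 over all genes tested. Values without S4 rest on 2 knockdown libraries, S5 and S6. These 26 members were called without S4 and none passed with it, so their choice favours genes where S4 lay near the controls. For 23 of the 26 S4 was nearer to the mean of the controls than to that of S5 and S6. For 8 it lay inside the range of the controls. KRT5 and KRT17 showed the same: 684 and 659 CPM of KRT5 in S5 and S6 but 1320 in S4, and 112 and 90.03 CPM of KRT17 in S5 and S6 but 576 in S4, with 1289 to 1460 and 521 to 605 CPM in the controls. What sets S4 apart was not tested. The authors' deposited phenotype table of this line lists the columns of S1 to S3, S5 and S6 and not those of S4.

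MRPL4, whose bacterial counterpart lines the peptide exit tunnel, had the most counts of any member in these cells. It had 374 CPM in S4, 242 in S5 and 194 in S6, against 336, 331 and 350 CPM in S1 to S3. S5 and S6 were far below the controls and S4 above them, and the log2 fold change was −0.61 ± 0.09 without S4 (edgeR adjusted p = 0.000103) and −0.31 ± 0.21 with it (edgeR adjusted p = 0.417). MRPS17, a counterpart of bacterial S17, had 27.8, 20.2 and 22.2 CPM in S4 to S6 and 41.0, 36.6 and 31.6 CPM in S1 to S3. Here S4 too was below the controls, and the log2 fold change was −0.76 ± 0.14 without S4 (edgeR adjusted p = 0.000453) and −0.62 ± 0.16 with it (edgeR adjusted p = 0.205). MRPL10, part of the base of the stalk that binds translation factors, had 31.4, 21.3 and 17.9 CPM in S4 to S6 and 30.7, 30.0 and 28.1 CPM in the controls (−0.57 ± 0.13 without S4, edgeR adjusted p = 0.00271, and −0.31 ± 0.20 with it, edgeR adjusted p = 0.39). MRPL12, the stalk protein related to bacterial L7/L12, had 30.4, 24.5 and 17.8 CPM in S4 to S6 and 25.8, 28.0 and 31.4 CPM in the controls (−0.40 ± 0.15 without S4, edgeR adjusted p = 0.0437, and −0.21 ± 0.19 with it, edgeR adjusted p = 0.549). In both stalk genes S5 and S6 were below every control and S4 was not.

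Among the members that rose without S4 was MRPS14, with 19.9, 28.3 and 28.4 CPM in S4 to S6 and 16.8, 19.0 and 20.4 CPM in S1 to S3 (0.62 ± 0.13 without S4, edgeR adjusted p = 0.0016, and 0.47 ± 0.18 with it, edgeR adjusted p = 0.221). The other 7 were MRPS6, MRPS21, MRPS15, MRPS27, MRPL49, MRPL50 and MRPL42, with log2 fold changes of 0.27 to 0.52 without S4 and 0.10 to 0.34 with it. The other 14 that fell were MRPS30, MRPS26, MRPS24, MRPS11, MRPS25, MRPS12, MRPL24, MRPL44, MRPL1, MRPL21, MRPL23, MRPL30, MRPL16 and MRPL58, the last of which codes for a peptidyl-tRNA hydrolase that rescues stalled ribosomes. These 14 were at −1.20 to −0.28 without S4 and at −0.78 to −0.09 with it. MRPS24 stood at the low end of both ranges, from very few counts: 4.90, 2.52 and 2.20 CPM in S4 to S6 and 5.92, 6.20 and 4.55 CPM in the controls. With all 6 libraries MRPS30 had the smallest unadjusted p of the members, 0.00233 (edgeR adjusted p = 0.205). The subunit sums followed S4: the large subunit genes summed to 2841 CPM in S4, 2537 in S5 and 2445 in S6, against 2725, 2723 and 2720 CPM in S1 to S3.

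**Figure D3:**
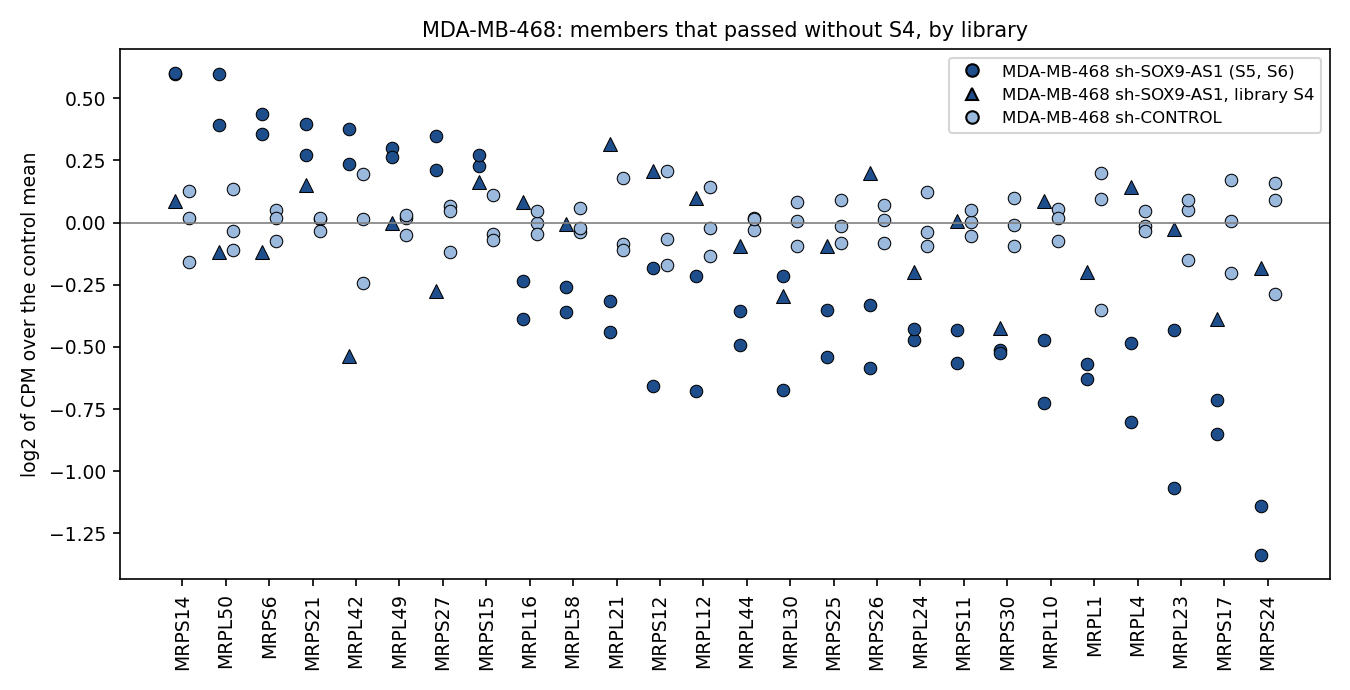
The 26 members that passed in MDA-MB-468 without S4, as log2 ratios of each library's CPM to the mean of the controls S1 to S3, with the knockdown libraries (dark; S4 as a triangle) to the left of the controls (light). For most genes the triangle lies among or near the control points rather than with S5 and S6; MRPS30, MRPL30 and MRPS15 are the 3 genes where it lies nearer to S5 and S6.

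The calls of the lines were set side by side. Between the HCC1187 calls and the MDA-MB-468 calls without S4, MRPS30 and MRPL30 fell in both, and none rose in both. MRPL24, MRPL44 and MRPS11 rose in HCC1187 and fell in MDA-MB-468, and MRPL42 did the reverse. These 6 were 33.3% of the 18 HCC1187 calls and 23.1% of the 26 MDA-MB-468 calls. Over all 12421 genes tested in both lines, the 1237 that passed in both were 41.1% and 24.7% of each line's calls. Of the 6 members 2 changed the same way in both lines (33.3%), and of the 1237 genes 718 did (58%). Whether the members differ from other genes in this was not tested. MRPS30 had 38.5, 36.2 and 35.9 CPM in S4 to S6 and 51.3, 55.3 and 48.4 CPM in S1 to S3, so that all 3 knockdown libraries were below all controls in both lines. Its log2 fold change was −0.49 ± 0.11 in MDA-MB-468 without S4 (edgeR adjusted p = 0.00177) and −0.46 ± 0.11 with it.

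**Figure D4:**
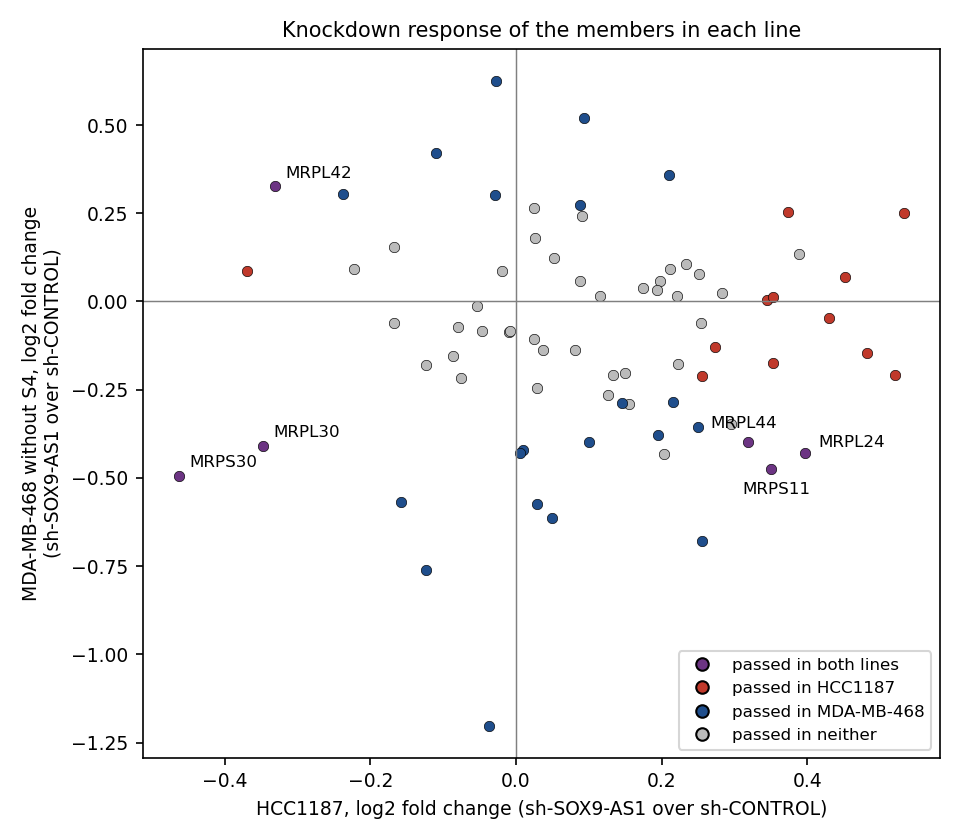
Log2 fold change of each of the 77 tested members in HCC1187 (horizontal) and in MDA-MB-468 without S4 (vertical), each for sh-SOX9-AS1 over sh-CONTROL. Named points passed in both lines: MRPS30 and MRPL30 are below 0 on both axes, MRPL24, MRPL44 and MRPS11 lie right of 0 and below it, and MRPL42 lies left of 0 and above it.

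The difference between the responses of the lines was tested as an interaction over all 12 libraries, as the HCC1187 response minus the MDA-MB-468 response. Of 77 members 4 had a higher response in HCC1187 and 0 a lower one (5.19% and 0%), where 1.24% and 2.52% of all 16328 genes tested did. At an unadjusted p under 0.05 there were 15 members and 3367 genes in all; DESeq2 called 5 members with a higher and 1 with a lower response, and limma-voom 4 and 0. The 4 were MRPL24, MRPL20, MRPS16 and MRPL44. The difference was 0.75 ± 0.16 for MRPL24 (edgeR adjusted p = 0.0217), with 33.6, 27.8 and 28.6 CPM in S4 to S6 and 42.0, 37.6 and 36.2 CPM in S1 to S3. MRPL24 was thus higher in every HCC1187 knockdown library than in the controls and lower in every MDA-MB-468 knockdown library, S4 included. For MRPL20 the difference was 0.66 ± 0.17 (edgeR adjusted p = 0.0411), with 55.3, 47.6 and 46.8 CPM in S4 to S6 and 55.6, 58.8 and 52.0 CPM in S1 to S3. For MRPS16 it was 0.59 ± 0.15 (edgeR adjusted p = 0.0438), with 99.4, 92.2 and 88.8 CPM in S4 to S6 and 98.0, 106 and 101 CPM in S1 to S3. For MRPL44 it was 0.62 ± 0.16 (edgeR adjusted p = 0.0454), with 30.3, 25.2 and 23.0 CPM in S4 to S6 and 32.7, 31.6 and 32.7 CPM in S1 to S3. In these genes S5 and S6 were below all controls, while S4 lay within the range of the controls for MRPL20 and MRPS16. None of the 4 kept its call in all 12 fits that left out 1 library: 0 members passed without S1, S2, S5, S8, S9, S10 or S12, 1 without S3 or S6, 2 without S7, 3 without S11, and 25 (20 higher, 5 lower) without S4, where 12.4% of all genes were higher and 13.2% lower.

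The promoters of 8 members are given because these genes moved in opposite directions between the lines (MRPL24, MRPL44, MRPS11 and MRPL42), had a response that differed between them by the interaction test (MRPL24, MRPL44, MRPL20 and MRPS16) or fell in both (MRPS30 and MRPL30). Each runs from 250 bases before to 50 bases after the gene start in RefSeq (GRCh38.p14), 5′ to 3′ on the gene's strand. They lie at chr1:156741039-156741338 (minus strand), chr1:1407244-1407543 (minus strand), chr10:73252595-73252894 (minus strand), chr2:223957213-223957512 (plus strand), chr15:88467458-88467757 (plus strand), chr12:93467264-93467563 (plus strand), chr5:44808697-44808996 (plus strand) and chr2:99180934-99181233 (plus strand). Capitals mark exact matches, on either strand, to 4 motifs of factors known for genes of mitochondrial function: the ETS core bound by GABPA (CCGGAAG), YY1 (AAGATGGCG), NRF1 (GCGCA and GCGC, 1 base apart) and SP1 (GGGCGG).
MRPL24: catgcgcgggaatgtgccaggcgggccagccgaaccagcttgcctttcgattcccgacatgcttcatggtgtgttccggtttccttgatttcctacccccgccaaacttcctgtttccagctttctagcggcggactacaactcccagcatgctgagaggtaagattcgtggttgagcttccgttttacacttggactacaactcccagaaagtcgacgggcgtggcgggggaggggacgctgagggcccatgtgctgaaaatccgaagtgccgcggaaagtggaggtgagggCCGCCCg
MRPL20: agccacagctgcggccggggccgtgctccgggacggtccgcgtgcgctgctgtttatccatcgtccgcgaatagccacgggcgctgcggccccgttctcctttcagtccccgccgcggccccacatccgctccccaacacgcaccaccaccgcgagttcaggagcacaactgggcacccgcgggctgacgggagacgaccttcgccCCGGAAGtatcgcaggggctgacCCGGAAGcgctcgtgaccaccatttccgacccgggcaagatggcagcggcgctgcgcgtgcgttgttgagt
MRPS16: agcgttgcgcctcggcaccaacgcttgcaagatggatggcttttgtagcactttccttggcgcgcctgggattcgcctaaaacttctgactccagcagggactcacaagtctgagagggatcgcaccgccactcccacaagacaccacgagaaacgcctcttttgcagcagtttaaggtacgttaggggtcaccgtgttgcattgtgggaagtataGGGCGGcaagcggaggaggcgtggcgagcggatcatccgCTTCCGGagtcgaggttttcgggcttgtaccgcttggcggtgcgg
MRPL44: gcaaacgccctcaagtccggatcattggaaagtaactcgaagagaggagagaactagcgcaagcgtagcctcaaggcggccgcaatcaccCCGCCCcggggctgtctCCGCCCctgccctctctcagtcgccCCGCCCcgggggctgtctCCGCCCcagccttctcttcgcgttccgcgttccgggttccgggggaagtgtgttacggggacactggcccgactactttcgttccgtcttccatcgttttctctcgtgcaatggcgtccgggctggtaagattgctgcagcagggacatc
MRPS11: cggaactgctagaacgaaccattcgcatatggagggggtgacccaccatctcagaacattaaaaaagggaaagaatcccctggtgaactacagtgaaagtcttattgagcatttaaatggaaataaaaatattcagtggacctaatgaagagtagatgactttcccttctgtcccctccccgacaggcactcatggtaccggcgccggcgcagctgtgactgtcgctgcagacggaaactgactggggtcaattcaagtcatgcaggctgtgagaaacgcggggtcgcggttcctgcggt
MRPL42: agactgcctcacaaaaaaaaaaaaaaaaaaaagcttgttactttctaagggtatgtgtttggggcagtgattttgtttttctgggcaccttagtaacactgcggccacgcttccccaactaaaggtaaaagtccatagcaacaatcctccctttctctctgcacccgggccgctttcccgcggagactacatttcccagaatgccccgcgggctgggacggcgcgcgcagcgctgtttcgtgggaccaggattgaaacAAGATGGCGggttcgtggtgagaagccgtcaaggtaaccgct
MRPS30: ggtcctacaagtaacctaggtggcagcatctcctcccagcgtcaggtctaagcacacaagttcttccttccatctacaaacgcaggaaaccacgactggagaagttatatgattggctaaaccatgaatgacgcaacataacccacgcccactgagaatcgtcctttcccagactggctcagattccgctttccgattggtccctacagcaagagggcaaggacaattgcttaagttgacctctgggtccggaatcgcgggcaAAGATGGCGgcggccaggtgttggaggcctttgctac
MRPL30: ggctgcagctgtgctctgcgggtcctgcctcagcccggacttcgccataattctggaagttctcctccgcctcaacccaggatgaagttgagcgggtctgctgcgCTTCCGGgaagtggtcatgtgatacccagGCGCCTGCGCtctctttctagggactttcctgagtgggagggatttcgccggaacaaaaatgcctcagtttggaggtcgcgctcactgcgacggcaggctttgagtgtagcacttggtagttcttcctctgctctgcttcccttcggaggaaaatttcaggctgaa
MRPL20 held 2 ETS matches, MRPS16 1 ETS and 1 SP1 match, MRPL44 4 SP1 matches and MRPL24 1 SP1 match. MRPL42 and MRPS30 held 1 YY1 match each just after the RefSeq start, MRPS11 0 matches, and MRPL30 1 ETS and 1 NRF1 match. No matches overlapped. GENCODE v29 places the starts of all of these genes elsewhere than RefSeq. For MRPS11 and MRPL24 they are at 88467453 and 156741590, and for the other genes they lie inside the windows. The windows of MRPS11 and MRPL24 lie wholly downstream of their GENCODE starts, so sequence before those starts was not searched. Of the 69 members with a promoter in the table, 42% held the ETS letters, 18.8% the YY1 letters, 11.6% the NRF1 letters and 60.9% the SP1 letters. Among all 35116 promoters the shares were 10.3%, 1.75%, 5.78% and 45%, and among the 22199 of protein-coding genes 12.8%, 2.41%, 7.39% and 56.3%. The ETS letters stood in 9 of the 14 members that rose and 1 of the 4 that fell in HCC1187, and in 1 of the 8 that rose and 5 of 15 that fell in MDA-MB-468 without S4. In the same order the YY1 letters stood in 5, 2, 2 and 2 of these members, the NRF1 letters in 2, 1, 0 and 1, and the SP1 letters in 8, 0, 6 and 10. Of the 18 members that fell in MDA-MB-468 without S4, 15 have a promoter in the table. The matches describe letters in these windows and were not tested as binding sites.

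Most members differed between the controls of the lines. In the HCC1187 controls 21 members were higher and 41 lower than in the MDA-MB-468 controls, and 15 did not pass. These are 27.3% and 53.2% of 77, where 43.6% of all 15592 genes tested were higher and 40.4% lower. The median log2 fold change was −0.35 over the members and 0.06 over all genes tested. On library totals alone the median of all genes was 0.29, and 27 members were higher and 29 lower, so that 48.2% of the members' calls were upward there and 33.9% with TMM. The line, its medium and any batch between the 2 tables cannot be told apart. Members with a bacterial homolog were higher in 11 and lower in 32 of 48 cases, and those without one in 10 and 9 of 29.

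At 2-fold or more, 12 members were lower and 3 higher in the HCC1187 controls (15.6% and 3.9%, where 23.0% and 26.7% of all genes were). MRPS17 differed most, with 8.79, 5.09 and 4.36 CPM in S7 to S9 and 41.0, 36.6 and 31.6 CPM in S1 to S3 (6.99-fold lower, log2 fold change −2.81 ± 0.18, edgeR adjusted p = 2.21e-12). MRPL4 had 68.0, 56.2 and 64.5 CPM in S7 to S9 and 336, 331 and 350 CPM in S1 to S3 (6.33-fold lower, −2.66 ± 0.08, edgeR adjusted p = 1.35e-17). MRPS12, whose bacterial counterpart is part of the decoding centre, had 20.6, 15.8 and 20.4 CPM in S7 to S9 and 79.7, 74.1 and 96.2 CPM in S1 to S3 (5.16-fold lower, −2.37 ± 0.12, edgeR adjusted p = 6.19e-14). In all 3 genes the lines were separated by a wide gap. The other 9 were MRPS24, MRPS18C, MRPL1, MRPL21, MRPL36, MRPS15, MRPL49, MRPL11 and MRPL33, at 2.01-fold to 3.45-fold lower. Higher in the HCC1187 controls were MRPL42, with 107, 129 and 107 CPM in S7 to S9 and 44.1, 38.8 and 32.5 CPM in S1 to S3, and MRPL10, with 85.0, 84.4 and 93.0 CPM in S7 to S9 and 30.7, 30.0 and 28.1 CPM in S1 to S3. Both were 2.51-fold higher, and MRPL46, at 9.58 ± 1.13 CPM in HCC1187 and 3.92 ± 0.92 CPM in MDA-MB-468 (SD, n = 3 each), was 2.09-fold higher. All 15 directions held on library totals alone.

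MRPS17, MRPL4 and MRPS12 lay among genes that, for the most part, were also lower in the HCC1187 controls. MRPS17, on chromosome 7 (GRCh38, 55951819 to 55956501, plus strand), had 9 tested protein-coding neighbours starting within 500 kb, all 9 lower in the HCC1187 controls, with a median log2 fold change of −2.46. EGFR, the growth factor receptor gene, which starts 932.8 kb away and is thus outside that window, was lower by 6.81 on the same scale. MRPL4, on chromosome 19 (10251901 to 10260045, plus strand), had 31 such neighbours, of which 27 were lower (median −1.76), and MRPS12, also on chromosome 19 (38930548 to 38933162, plus strand), had 22, of which 16 were lower (median −1.46). Over all 15592 genes tested, 7501 were below 0 and 8091 above it. MRPS18C went the other way from its neighbours, whose median was 0.60 while its own value was −1.38. MRPL1, at −1.35, had 2 neighbours, both higher (median 0.82), and MRPS15 and MRPL21 had neighbour medians of −0.04 and −0.18. With at least 3 neighbours, the neighbour median was −0.79 for members at least 2-fold lower, 0.336 for those at least 2-fold higher and 0.015 for the others. Across the 72 members with at least 3 neighbours, the member's log2 fold change and its neighbours' median had a Pearson r of 0.742, a description across genes, some of which share neighbours. DNA copy number was not analysed here.

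**Figure D5:**
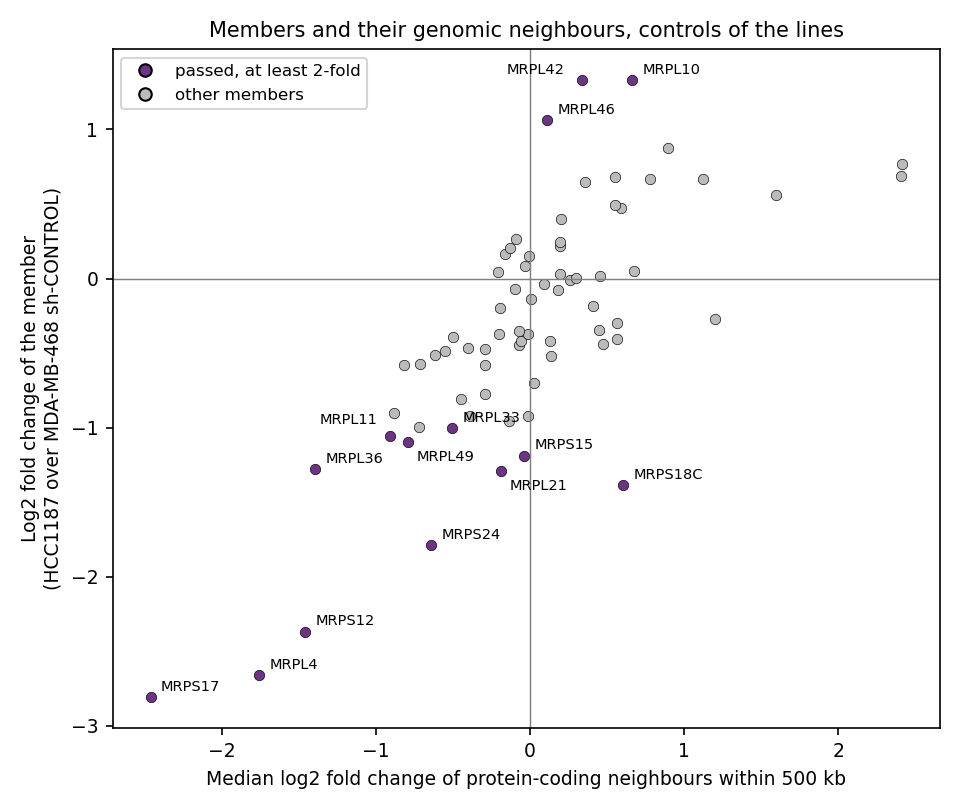
Log2 fold change of each member in HCC1187 over MDA-MB-468 controls (vertical) against the median log2 fold change of the tested protein-coding genes that start within 500 kb of it (horizontal), for 72 members with at least 3 such neighbours. Purple points with names passed at 2-fold or more: MRPS17, MRPL4 and MRPS12 lie at the lower left, and MRPS18C lies right of 0 with a value of −1.38.

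Per kilobase of the gene length in the tables, MRPS34 (95.2 ± 14.3 CPM per kb, SD, n = 3), MRPL51, MRPS26, MRPL37, MRPL14 and MRPL39 led in the HCC1187 controls. In the MDA-MB-468 controls MRPS26 (106 ± 5.64 CPM per kb), MRPS34 (99.4 ± 4.23), MRPL4 (83.1 ± 2.43), MRPL37, MRPL14 and MRPL3 led. In HCC1187 the first differed from the second, MRPL51 (67.9 ± 5.13), by more than their spread, while MRPS26 and MRPL37 (62.5 ± 3.29 and 59.9 ± 4.62) did not differ beyond it. At the low end in both lines stood MRPL53, MRPL46 and MRPL38, with MRPS24 in HCC1187 and MRPS28 in MDA-MB-468. MRPL53 was the 1 member with too few counts to be tested, at 0 to 0.436 CPM; on the same strand 608 of its exonic bases are shared with CCDC142. Likewise MRPS24 shares 606 bases with the readthrough gene URGCP-MRPS24 and MRPS17 shares 583 with NIPSNAP2 and a clone-named gene. With clone-named genes alone MRPL12 shares 701 of its 1028 exonic bases, MRPL46 724, MRPL30 944 and MRPL38 1373. In GENCODE v29, 29 members overlap an exon on the opposite strand and 16 on the same strand, and no source used here says whether the counting used strand. Levels of such genes are uncertain to that extent. The 75 MRPL and MRPS pseudogenes in the tables held only 16 to 73 counts per library, at most 0.22% of the members' counts.

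For 21 members a gene on the opposite strand starts upstream within 1000 bases, for 17 of them a protein-coding gene. Opposite-strand genes that start inside the member are not in this count. MRPL46 and MRPS11 form such a pair, with GENCODE v29 starts 34 bases apart on chromosome 15. MRPS11 rose in the HCC1187 knockdown, with 50.3, 44.4 and 39.6 CPM in S10 to S12 and 37.7, 32.9 and 30.0 CPM in S7 to S9 (0.35 ± 0.11, edgeR adjusted p = 0.0281). MRPL46 had 12.3, 10.6 and 9.15 CPM in S10 to S12 and 10.2, 10.3 and 8.28 CPM in S7 to S9, groups that overlapped.

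Of 76 other genes of mitochondrial translation and its regulation tested in HCC1187, 11 passed, 5 up and 6 down, where 9.78% of all genes rose and 13.1% fell. Of 15 translation factors 3 rose and 0 fell: MTIF3, an initiation factor (0.39 ± 0.13, edgeR adjusted p = 0.029), MTFMT, which formylates the initiator tRNA (0.40 ± 0.14, edgeR adjusted p = 0.0405), and OXA1L, the inner membrane insertase (0.24 ± 0.09, edgeR adjusted p = 0.0498). Of 26 assembly factors TFB1M, a ribosomal RNA methyltransferase, rose (0.36 ± 0.12, edgeR adjusted p = 0.0393) and 0 fell. Of 17 tRNA synthetases TARS2 rose (0.32 ± 0.09) and EARS2 fell (−0.40 ± 0.10). Of 5 mitoribosome proteins named without the prefix 0 passed with edgeR; CHCHD1 was at 0.26 ± 0.11 and AURKAIP1 at 0.23 ± 0.10. DESeq2 called 7 genes of these lists in all, 1 up and 6 down.

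Of 13 regulators of mitochondrial transcription and biogenesis, 5 fell in HCC1187 and 0 rose. YY1, a zinc finger transcription factor, fell by 0.44 on the log2 scale (± 0.08, edgeR adjusted p = 0.000393). TFAM, which packages mitochondrial DNA, fell by 0.47 (± 0.10, edgeR adjusted p = 0.00155). MYC fell by 0.47 (± 0.11, edgeR adjusted p = 0.00328) and PPRC1, a coactivator, by 0.31 (± 0.09, edgeR adjusted p = 0.0174). In MDA-MB-468 with all 6 libraries 0 genes of the 5 lists passed. Without S4, 5 of 12 tested regulators fell and 0 rose, where 20.0% of all genes rose and 20.7% fell. MYC was at −1.77 ± 0.10 without S4 (edgeR adjusted p = 4.07e-09) and at −0.94 ± 0.43 with it (edgeR adjusted p = 0.276), and PPRC1 at −0.87 ± 0.10 (edgeR adjusted p = 1.35e-05) and −0.55 ± 0.22 (edgeR adjusted p = 0.232). TFB2M and PPARGC1B were at −0.62 ± 0.13 and −0.68 ± 0.15 without S4 and at −0.37 ± 0.20 and −0.41 ± 0.22 with it. Against the same shares of all genes, without S4, 9 of 25 assembly factors fell and 2 rose, 5 of 15 translation factors and 5 of 16 tRNA synthetases fell, and 0 and 1 of these rose. The assembly factor C1QBP was at −0.68 ± 0.10 without S4 (edgeR adjusted p = 7.72e-05) and at −0.35 ± 0.22 with it (edgeR adjusted p = 0.397). Over all 12 libraries YY1 was the 1 gene of these lists whose response differed between the lines, by −0.45 ± 0.12 (edgeR adjusted p = 0.0456). Without S4 28 genes of these lists differed. YY1, at −0.42 ± 0.11 (edgeR adjusted p = 0.00672), was then the 1 with a lower response in HCC1187. MYC was at 1.31 ± 0.16 (edgeR adjusted p = 6.26e-07) and C1QBP at 0.71 ± 0.12 (edgeR adjusted p = 0.000122). In that fit 12.4% of all genes were higher and 13.2% lower.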

How the data were processed

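Sequencing and counting were done by the authors. Per the labels' protocols, RNA was extracted with TRIzol and made into libraries with a stranded TruSeq mRNA kit for paired reads of 76 bp. Per the submitters' processing notes the authors used HISAT2 2.1.0, featureCounts 2.0.0, Trimmomatic 0.39 and SAMtools on GRCh38, with FastQC 0.11.9 and MultiQC 1.11; settings and annotation release were not given in the sources used here. Deposited values are raw gene counts by sequencing lane, and the deposited gene length column (another unit, in bases) was used for CPM per kb. Column names carry a library and a lane but no replicate number. Each library was taken from 1 lane by choice, though lanes of a library could be summed by its library number. Thus 12 lane columns were used and 24 were not, in place of the sum of 3 lanes. Depth and precision are those of that lane.

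Printed CPM use plain library totals; log2 fold changes come from edgeR 4.0.16 (R 4.3.3), with filterByExpr (minimum count 10, total 15), TMM and the quasi-likelihood test, adjusted over all genes tested. An SE is the log2 fold change over the root of F. The difference between the lines is the interaction over 12 libraries. Alternatives were DESeq2 1.42.0, limma-voom 3.58.1, other scalings, filters and thresholds, 1 fit over 12 libraries and leaving out each library. The procedure was tested on simulated data with changes of 1.5-fold or more, so changes as small as the HCC1187 calls were not covered. The simulated spread between libraries was smaller than that fitted in MDA-MB-468 and over all 12 libraries. Members and lists were chosen with earlier results of these data known, and the classes with and without a bacterial homolog and the motifs after values were seen. Named members were up to 14 per direction and comparison by smallest p, those highest and lowest per kb, and a few of special role; not all are reported here. GTPBP5 and WBSCR16 of the assembly list had no row. Annotation came from GENCODE v29 (78 of 78 members matched by gene ID) and promoters from RefSeq (69 matched). No library was a copy of another in its group; the smallest chi-square per degree of freedom, between S1 and S2, was 1.90.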

Additional observations from a re-analysis of the deposited data

Results flagged for a closer look

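For 4 members the response to the knockdown differed between the lines by the interaction test over 12 libraries (HCC1187 response minus MDA-MB-468 response, edgeR). The difference was 0.75 for MRPL24 (adjusted p = 0.0217), 0.66 for MRPL20 (adjusted p = 0.0411), 0.59 for MRPS16 (adjusted p = 0.0438) and 0.62 for MRPL44 (adjusted p = 0.0454). Over the fits that left out 1 library the values ran from 0.68 to 0.83 for MRPL24, 0.55 to 0.75 for MRPL20, 0.51 to 0.69 for MRPS16 and 0.54 to 0.72 for MRPL44. MRPL24 passed in 5 of these 12 fits, MRPS16 in 3, MRPL20 in 2 and MRPL44 in 1; the highest adjusted p was 0.07 for MRPL24 (without S5), 0.116 for MRPL20 (without S5), 0.123 for MRPS16 (without S8) and 0.124 for MRPL44 (without S5). The part of S4 and of the marker profile of the libraries labelled HCC1187 in these differences was not tested.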

How the results depend on the processing

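No paired analysis was possible because the count columns carry no replicate number. In HCC1187 18 members passed. The number was 9 at adjusted p under 0.01, 8 with all 12 libraries in 1 fit and 0 with a 1.5-fold minimum. It was 8 to 16 with 1 library left out, where 14.4% to 22.3% of all genes passed. In MDA-MB-468 0 passed, 1 without a filter on low counts and 1 with all 12 libraries in 1 fit. With 1 library left out 0 to 26 passed, 26 being the fit without S4. Of all genes, 40.7% passed without S4 and 0% in the other fits that left out 1 library. The difference between the lines passed for 4 members, for 2 without the filter and for 0 at adjusted p under 0.01. The range was 0 to 25 members with 1 library left out. Of all genes, 25.6% passed without S4 and 0.768% to 2.15% in the other fits that left out 1 library. Between the controls 62 passed, and 32 with a 1.5-fold minimum. Shares of all genes under the other thresholds, filters and fits are not given here. The translation lists held 11 calls in HCC1187 (7 with DESeq2, 6 to 12 with 1 library left out), 0 in MDA-MB-468 (0 to 28) and 1 for the difference (5 with DESeq2, 0 to 28). The log2 difference of the summed large subunit in HCC1187 was 0.15 on library totals, 0.10 on TMM-scaled totals and 0.24 for the median gene; that of the small subunit was 0.15, 0.10 and 0.091. In MDA-MB-468 the small subunit was at −0.04, and at −0.15 for the median gene. Between the controls of the lines the large subunit was at −0.16, at −0.40 on TMM-scaled totals and at 0.046 for the median gene, and the small subunit at −0.12, −0.37 and −0.0113. Leaving out S4 turned the sign of 9 of 77 members in MDA-MB-468 and of 5 in the difference between the lines, 0 of which passed without S4. Of the named members, which alone were recomputed under every setting, signs turned for 3 of 26 in MDA-MB-468 and for 0 in the other comparisons: with 1 library left out, MRPL21 ran from −0.354 (without S4) to 0.0465 (without S6) and was also above 0 without S3 or S5, MRPL42 from −0.0819 (without S6) to 0.327 (without S4) and was also below 0 without S3, and MRPS12 from −0.378 (without S4) to 0.0384 (without S6). Causes were not tested where the number of libraries or the threshold does not give them. One lane per library and 3 libraries per group limit what small changes can be seen.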
